A study of Homo sapiens with 6 samples.

Results

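Open chromatin was compared between camptothecin and DMSO in the vector line of K562, the line of the series that carries no SLFN11 transgene. K562 is an established human leukaemia line. The intervals were taken from the peak lists of 2 libraries, vector with DMSO (5246 distinct intervals) and vector with 1000 nM camptothecin (CPT) for 4 h (5806). Together they make 11052 of the 48967 intervals in the 6 lists of the series, whose other 4 libraries are a wild-type SLFN11 and an E669Q SLFN11 overexpression line with the same treatments. All lines were grown in the same medium with serum, and both libraries compared here are labelled as the vector control. The sources used here do not say whether the vector line is 1 clone or a pool, or how long DMSO was present. Coordinates are on the hg19 build. An interval of the CPT list that overlapped no DMSO interval by at least 1 bp is called gained, one of the DMSO list with no such overlap in the CPT list is called lost, and the rest are shared. Each group holds 1 library, so no difference below has a replicate check and none was tested. The 95% intervals given cover counting error only.

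ATAC-seq uses a transposase that inserts sequencing adapters where DNA is not packed by nucleosomes, so that its peaks mark promoters, enhancers and other regulatory DNA. Camptothecin traps topoisomerase I, the enzyme that relieves torsion ahead of polymerases, on its cut DNA strand, and replication forks that meet these complexes stall or break. SLFN11 is a protein recruited to such stressed forks and is known for sensitising cells to drugs of this class. The vector line was the setting without overexpressed SLFN11 against which both SLFN11 lines stand.

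Both libraries were of nearly equal depth. Taking the depth of the DMSO library as 1, that of the CPT library was 1.09, as recovered from the deposited fold and −log10 p. Total read numbers were not used here. The covered sequence was 1.49 Mb with DMSO and 1.59 Mb with CPT, and median interval widths were 244 and 234 bp. Depth in the other libraries was 1.09 in wild-type SLFN11 with CPT, 1.33 in E669Q with DMSO, 1.72 in wild-type SLFN11 with DMSO and 2.22 in E669Q with CPT.

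The shared part held most of either list, and the part found in a single list was large on both sides. Of the 5806 CPT intervals, 2621 were gained (45.1%, 95% Clopper-Pearson interval 43.9 to 46.4) and 3185 were shared. Of the 5246 DMSO intervals, 2071 were lost (39.5%, 38.2 to 40.8) and 3175 were shared. Gained intervals covered 0.571 Mb and lost intervals 0.468 Mb, against 1.03 Mb of shared intervals in the DMSO list. The 2 shared counts differ because 27 DMSO intervals each spanned several CPT intervals and 17 CPT intervals each spanned several DMSO intervals. With both lists limited to the same length by −log10 p, 2245 intervals were gained and 2247 lost, so the excess of gained sites was not seen there. Where an overlap of 0.5 of both lengths was required, 61.2% of the CPT and 57.1% of the DMSO intervals were unmatched, and shared intervals no longer made up most of either list. In the CPT list that majority also ended when summits were matched within 150 bp (3181 of 6280 entries unmatched, 50.7%) and when both lists were held to a −log10 q of at least 5 (1487 of 2974 gained, 50%). Set against the whole DMSO list, 899 of these 2974 were gained (30.2%).

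Gained and lost sites were the weaker ones of their lists. Fold enrichment over local background, −log10 p and −log10 q (the p-value adjusted for multiple tests) are the authors' own values for each peak, made by their peak caller. The fold had a median of 5.63 in gained and 6.63 in shared intervals of the CPT list, and of 5.39 in lost and 6.49 in shared intervals of the DMSO list. The summit pileup, which is the number of fragments stacked at the highest point, had a median of 7 in both gained and lost intervals and of 10 in shared intervals of either list. The upper end differed more than the middle: 21 of 2620 gained and 11 of 2071 lost intervals reached 20 fragments, against 299 of 3170 shared intervals in the CPT list and 251 of 3162 in the DMSO list. A −log10 q of at least 5 was reached by 34.3% of gained and 27.2% of lost intervals, and by 65.1% and 62.6% of the shared intervals of their lists. At −log10 q of at least 10 there were 58 gained and 36 lost intervals. Values close to the end of the lists, with −log10 q under 4, made up 45.5% of gained and 53.7% of lost intervals, against 20.3% and 23.7% of the shared ones.

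**Figure D1:**
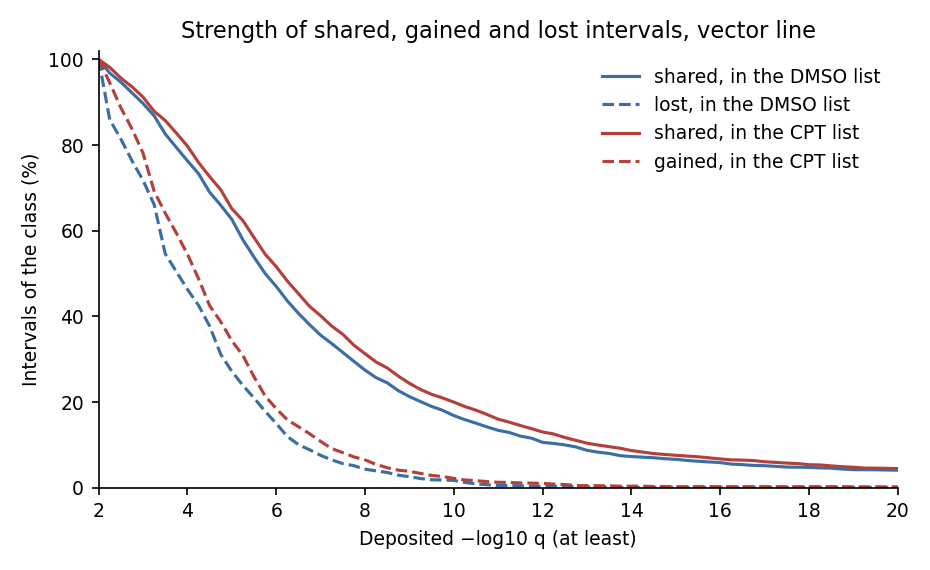
Share of intervals (y axis, %) at or above each deposited −log10 q (x axis) for shared intervals (solid) and for lost or gained intervals (dashed) in the DMSO list (blue) and the CPT list (red) of the vector line. Both dashed curves drop faster than the solid ones, and 34.3% of gained and 27.2% of lost intervals lie at 5 or above.

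The stronger an interval, the more often its counterpart was listed in the other library. Among DMSO intervals with −log10 q from 2 to 3, 327 of 912 (35.9%, 32.7 to 39.1) were found again with CPT. From 5 to 6 this was 497 of 749 (66.4%, 62.8 to 69.7), and at 15 or more it was 211 of 213 (99.1%, 96.6 to 99.9). In the CPT list the same steps gave 281 of 855 (32.9%, 29.7 to 36.1), 431 of 846 (50.9%, 47.5 to 54.4) and 242 of 249 (97.2%, 94.3 to 98.9). The CPT list thus held 7 intervals at 15 or more without a DMSO counterpart, and the DMSO list 2 without a CPT counterpart. The gap between the lists was widest from 5 to 6, in the direction of more unmatched intervals in the CPT list, which is also the list of the deeper library. Whether depth accounts for that gap was not tested.

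**Figure D2:**
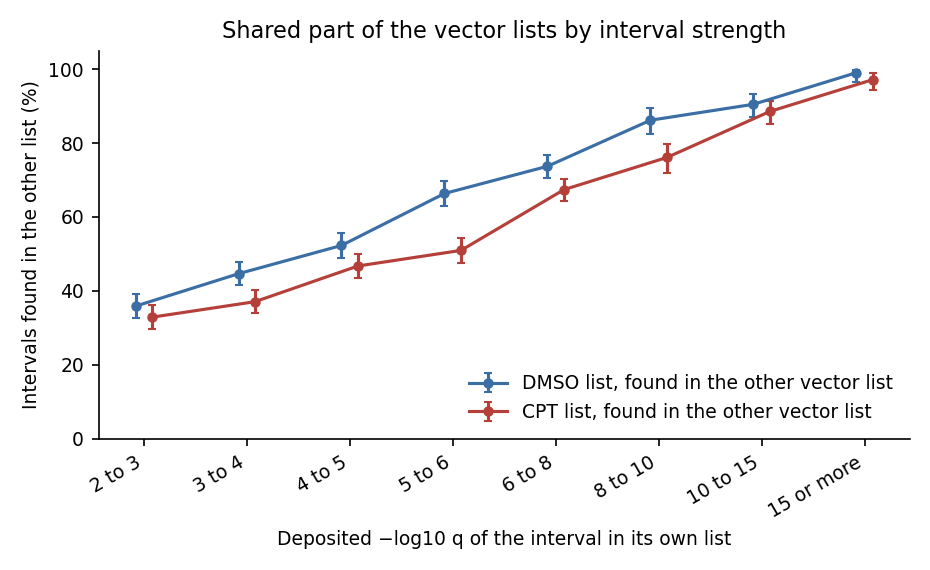
Share of intervals (y axis, %) found in the other vector list, by deposited −log10 q in their own list (x axis), for the DMSO list (blue) and the CPT list (red), with 95% Clopper-Pearson intervals as bars. Both curves climb from the weakest step (35.9% and 32.9%) to 99.1% and 97.2% in the strongest.

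Shape followed the same order. Intervals with several summits were nearly always shared, 295 of 304 in the DMSO list (97.0%, 94.5 to 98.6) and 329 of 347 in the CPT list (94.8%, 91.9 to 96.9). Intervals of 150 bp or less were shared less often than wider ones, 258 of 651 with DMSO (39.6%, 35.9 to 43.5) and 352 of 1024 with CPT (34.4%, 31.5 to 37.4). They were also weaker, with a median −log10 q of 3.48 and 3.67, against 5.12 and 5.41 in wider intervals. Narrow intervals made up 25.6% (23.98 to 27.4) of gained and 18.98% (17.3 to 20.7) of lost sites. Median widths were 191 bp in gained, 198 bp in lost and 286 bp in shared intervals of the DMSO list.

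Few unmatched sites lay close to a site of the other list. A gained interval lay a median of 82529 bp from the nearest DMSO interval, and 4.77% of the 2621 lay within 200 bp of it. For lost intervals the median distance to the nearest CPT interval was 83700 bp, and 117 of 2071 (5.65%) lay within 200 bp. Within 1 kb these shares were 7.44% and 8.55%. Within 10 kb they were 13.5% and 15.1%, so most gained and lost sites had no listed neighbour that near in the other library. The shares that randomly placed intervals would give were not computed, so these values do not show whether unmatched sites avoid or adjoin sites of the other list.

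Shared intervals, which overlap by definition, had a median summit pileup of 10 fragments in either library. Of 3114 intervals that matched 1 to 1, the summits lay a median of 60 bp apart, with 1365 (43.8%) within 50 bp, and the overlap was a median of 97.2% of the shorter interval. Summit pileups could be recovered in both libraries for 3098 of them. The CPT over DMSO ratio of summit pileups had a median of 1.06 (1.00 to 1.08), close to the depth ratio of 1.09, and its 10th and 90th percentiles were 0.700 and 1.58. The pileup was higher with CPT in 1565 pairs, lower in 1142 and equal in 391. A ratio of 2 or more was seen in 100 pairs (3.23%) and of 0.5 or less in 38 (1.23%). Most of those were low counts: of the 227 pairs whose 2 pileups summed to at least 40 fragments, 5 reached a ratio of 2 and 2 fell to 0.5 or less, around a median of 1.11 (1.09 to 1.13). Over the 3098 pairs the pileups of both libraries had a Spearman rho of 0.652, as a description of sites that share the caller and the local background.

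**Figure D3:**
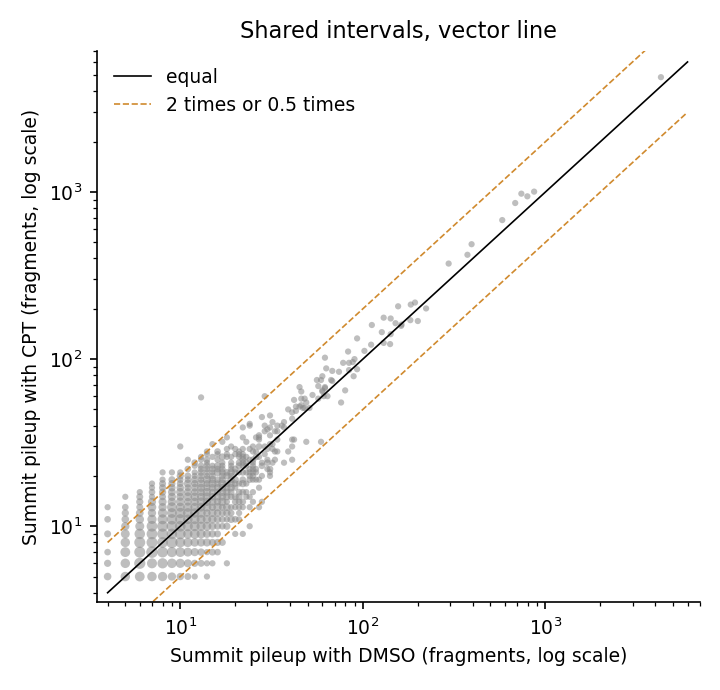
Summit pileup with CPT (y axis, fragments, log scale) against DMSO (x axis, fragments, log scale) for 3098 shared intervals of the vector line; larger points stand for more intervals at the same values, the black line for equality and the dashed lines for 2 times and 0.5 times. The cloud is centred near the line of equality, with a median ratio of 1.06, and the lone point far above it is at 13 and 59 fragments.

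The 3 shared intervals with the highest ratio, among pairs of at least 40 fragments, also varied between libraries of the SLFN11 lines. What lies at these sites was not examined. At chr3:160665444-160665571 the pileup was 13 with DMSO and 59 with CPT, a ratio of 4.54 (exact counting interval 2.46 to 9.02). This site held 14 fragments in wild-type SLFN11 with DMSO, 11 with CPT, 54 in E669Q with DMSO and 65 with CPT. High and low values thus occurred with either treatment at this site. At chr2:188374749-188375014 the pileup was 10 and 30 (ratio 3.00, 1.43 to 6.88), and in wild-type SLFN11 it was 26 with DMSO and 10 with CPT. The E669Q list with DMSO had no interval there, and with CPT it had 9 fragments. At chr14:32954017-32954324 the pileup was 29 and 60 (2.07, 1.31 to 3.34). That place ranged from 58 fragments in wild-type SLFN11 with CPT, through 72 in E669Q with DMSO, to 392 in wild-type SLFN11 with DMSO and 456 in E669Q with CPT. The last 2 are the deepest libraries, at 1.72 and 2.22 times the depth of the DMSO vector library. Their intervals started at 32953752 and 32953754, and those of all SLFN11 libraries started left of the vector interval. Whether their summits lie inside the named coordinates was not examined.

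The 3 shared intervals with the lowest ratio, among the same pairs, were listed in all 6 libraries. At chr5:162932296-162932890 the pileup was 27 with DMSO and 13 with CPT (ratio 0.48, 0.23 to 0.97), against 35 and 19 in wild-type SLFN11, and 20 and 34 in E669Q. At chr1:85741903-85742524 it was 28 and 14 (0.50, 0.24 to 0.98), against 37 and 15 in wild-type SLFN11, and 18 and 26 in E669Q. At chr1:142890699-142891210 it was 59 and 32 (0.54, 0.34 to 0.85), against 112 and 53 in wild-type SLFN11, and 79 and 106 in E669Q. In the SLFN11 lines the higher pileup at these 3 sites was with DMSO in the wild-type and with CPT in the E669Q line, which are the deeper libraries of each pair. These sites were chosen as the extremes of 227 pairs, so their vector ratios are descriptions of the ends of the distribution.

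The 3 shared intervals with the highest −log10 p with DMSO were chr17:22020540-22020910 (authors' fold 49.6 with DMSO and 48.9 with CPT), chr13:110076475-110076687 (37.3 and 36.9) and chr2:149639294-149639421 (44.2 and 43.2). All 3 were listed in each of the other 4 libraries as well, with folds of 47.9 to 50.4, 35.1 to 37.9 and 42.1 to 45.4. They were chosen among shared sites, and strong unmatched sites are given further on. With DMSO the chr17 site had a summit pileup of 2961 over a local background of 58.7, far above the list median of 8. What lies at sites of such height was not examined, so they are not to be read as promoters or enhancers.

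The chromosomes differed in how much of their lists was shared. In the DMSO list, 61.4% of intervals on the 17 less gene-dense chromosomes were found again with CPT, against 54.3% on the 6 most gene-dense ones, which are 19, 17, 11, 16, 22 and 20. In the CPT list these shares were 56.6% (55.2 to 58.0) and 44.5% (41.2 to 47.8). By strength, the DMSO shares were 37.2% and 30.3% from −log10 q 2 to 3, 45.3% and 41.1% from 3 to 4, and 52.8% and 49.6% from 4 to 5. They were 66.3% and 66.7% from 5 to 6, and 73.8% and 73.1% from 6 to 8. The gap in the DMSO list was thus seen in the weaker steps, where the counting intervals overlapped, and not from 5 to 8. In the CPT list the shares were 53.6% and 36.6% from 5 to 6, 68.4% and 61.5% from 6 to 8, and 88.6% and 88.4% from 10 to 15. The gene-dense group was not uniform: on chromosome 11, 69.8% (64.1 to 75.04) of the 288 DMSO intervals were found again, more than over the less gene-dense chromosomes. On chromosome 5, 63.3% of DMSO and 64.9% of CPT intervals were shared, and on chromosome 6, 66.7% and 62.8%.

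Chromosome 19, which carries many promoters and zinc-finger genes, had the lowest shared part in the CPT list. It held 118 DMSO and 168 CPT intervals, of which 72 were lost and 122 gained. Of its CPT intervals 27.4% (20.8 to 34.8) had a DMSO counterpart, and of its DMSO intervals 39.0% (30.1 to 48.4) had a CPT counterpart. Chromosome 20 was also low in the DMSO list (37.7%, 25.6 to 51.0), as was chromosome 15 (37.8%, 26.8 to 49.9). On chromosome 19 the intervals were also weaker, with a median −log10 q of 3.61 with DMSO and 4.32 with CPT, against 5.04 and 5.39 on chromosome 1. Among intervals of −log10 q 5 or more, set against the whole other list, 63.3% of 30 DMSO and 39.4% of 66 CPT intervals on chromosome 19 were shared, against 81.1% of 338 and 68.7% of 409 on chromosome 1. At that strength chromosome 19 was not the lowest: chromosome 20 had 36.7% of 30 CPT intervals shared, and chromosome 15 had 47.6% of 21 DMSO intervals. Chromosomes 12, X and 17 had 63.9%, 64.0% and 65.5% of DMSO intervals shared, close to chromosome 19. Chromosome 19 had the largest increase in intervals of the 23 chromosomes, 1.42 times, followed by chromosome 21 (1.30, from 46 to 60), chromosome 8 (1.24), chromosomes 17 (1.22) and 11 (1.22). Chromosomes 15 (0.92) and 13 (0.94) had the largest decreases.

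**Figure D4:**
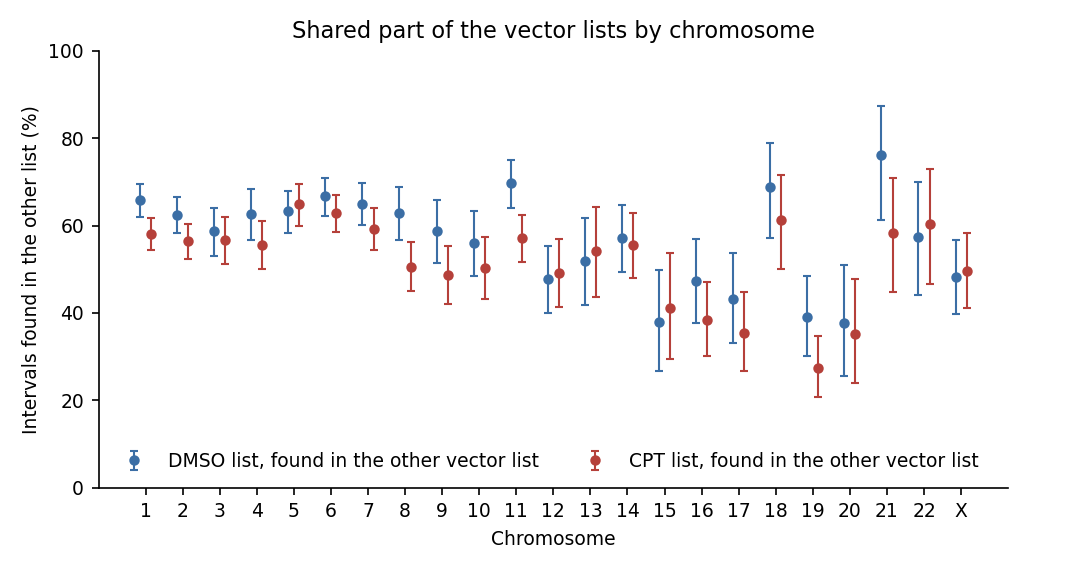
Share of intervals (y axis, %) found in the other vector list for chromosomes 1 to 22 and X (x axis), in the DMSO list (blue) and the CPT list (red), with 95% Clopper-Pearson intervals as bars. Chromosome 19 is lowest in the CPT list at 27.4%, and chromosomes 15, 19 and 20 lie at 37.7% to 39.0% in the DMSO list.

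The signal around shared sites was also higher with CPT on chromosome 19. In the 10 kb around shared intervals the median CPT over DMSO ratio of fragments was 1.05 over 3054 pairs, and 1.20 over the 46 pairs on chromosome 19. The next highest chromosomes were 16 (1.08), 17 (1.08) and 12 (1.07), and the lowest of the 23 was 13 (0.957). These ratios are not scaled for depth, which was 1.09 times as high in the CPT library. Only the chromosome 19 median lay above that depth ratio. As a ratio of summed 10 kb fragments, chromosome 19 had 1.18, chromosome 17 had 1.15, chromosome 1 had 1.15 and chromosome 5 had 1.14, against 1.10 over all pairs. Summit pileups of the chromosome 19 pairs had a median ratio of 1.21 (1.00 to 1.33), an interval that holds the 1.06 of all pairs. Chromosomes 16 (1.19) and 22 (1.17) were close to it. Over 23 chromosomes the median 10 kb ratio had a Spearman rho of 0.544 with the number of protein-coding genes per Mb, and the median summit ratio 0.259. Chromosomes share the 2 libraries and differ in base composition, so these are descriptions. Chromosome 19 was the highest of the 23 by each of these ratios, but by a narrow margin for summits and for summed fragments. The part of the surrounding signal in the counts of that chromosome was not tested.

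By 10 Mb segment, the 3 largest increases in number were on chromosomes 11 and 19. Chromosome 11 from 60 to 70 Mb went from 20 intervals with DMSO to 39 with CPT, with 31 gained and 12 lost. Chromosome 19 went from 27 to 45 between 0 and 10 Mb (35 gained, 17 lost) and from 17 to 33 between 40 and 50 Mb (24 gained, 8 lost). Chromosome 1 from 40 to 50 Mb went from 23 to 37, and chromosome 9 from 130 to 140 Mb from 32 to 46. The largest decreases were smaller. Chromosome 14 from 90 to 100 Mb went from 30 to 22, and chromosome 5 went from 24 to 16 between 90 and 100 Mb and from 11 to 4 in its last segment, from 180 Mb on. No gained interval lay in that last segment, and 7 were lost. Decreases of the same size were seen on chromosome 7 from 0 to 10 Mb (37 to 30) and chromosome 1 from 140 to 150 Mb (26 to 19).

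Most gained and lost sites were listed somewhere else in the series. The lists of the SLFN11 lines played no part in choosing them. Of gained intervals, 86.6% (85.2 to 87.9) overlapped at least 1 of these 4 lists and 22.9% overlapped all 4. Of lost intervals the shares were 82.9% (81.2 to 84.5) and 20.4%. Shared intervals of the DMSO list reached 99.1% and 64.0%. The number found in none of the 4 lists was 351 among gained, 354 among lost and 27 among shared intervals.

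Gained and lost sites recurred at similar rates, with a small lead for gained sites in the CPT lists. In wild-type SLFN11 with DMSO, 69.6% (67.8 to 71.3) of gained and 67.3% (65.2 to 69.3) of lost intervals were found, and in E669Q with DMSO 50.1% (48.2 to 52.1) and 48.5% (46.3 to 50.7). With CPT the shares were 36.0% (34.2 to 37.9) and 31.1% (29.1 to 33.1) in wild-type SLFN11, and 72.1% (70.4 to 73.9) and 64.6% (62.5 to 66.6) in E669Q. Gained sites were the stronger group. The lead differed by step of −log10 q and was large in the weakest one. From −log10 q 2 to 3, the E669Q list with CPT held 64.8% of gained and 50.6% of lost sites. The wild-type SLFN11 list with CPT held 32.1% and 21.2%. Strength was not matched inside that step, where more of the lost sites lay at the lower end. Of all gained sites 94.5% reached 2.25 and 78.1% reached 3, against 85.9% and 71.8% of all lost sites. The part of strength in the lead of that step was not tested. In the next step, from 3 on, the E669Q list with CPT held 62.9% of gained and 60.7% of lost sites. The wild-type SLFN11 list with CPT held 27.8% and 26.4% there. From 6 to 8 these were 83.4% and 83.7%, and 42.8% and 46.6%, so that gained sites did not lead there. From 10 to 15 the wild-type SLFN11 list with CPT held 35 of 51 gained and 17 of 34 lost sites, and the E669Q list with CPT 47 (92.2%) and 31 (91.2%). From 8 to 10 the wild-type SLFN11 list with CPT held 57.5% and 57.4%, and the E669Q list with CPT 92.0% and 87.0%. In the same weakest step the DMSO lists also held more gained than lost sites, 61.1% against 54.4% in wild-type SLFN11 and 42.3% against 34.9% in E669Q. For gained, lost and shared sites alike, the 2 deepest libraries held the largest shares. The part of depth in this was not tested.

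**Figure D5:**
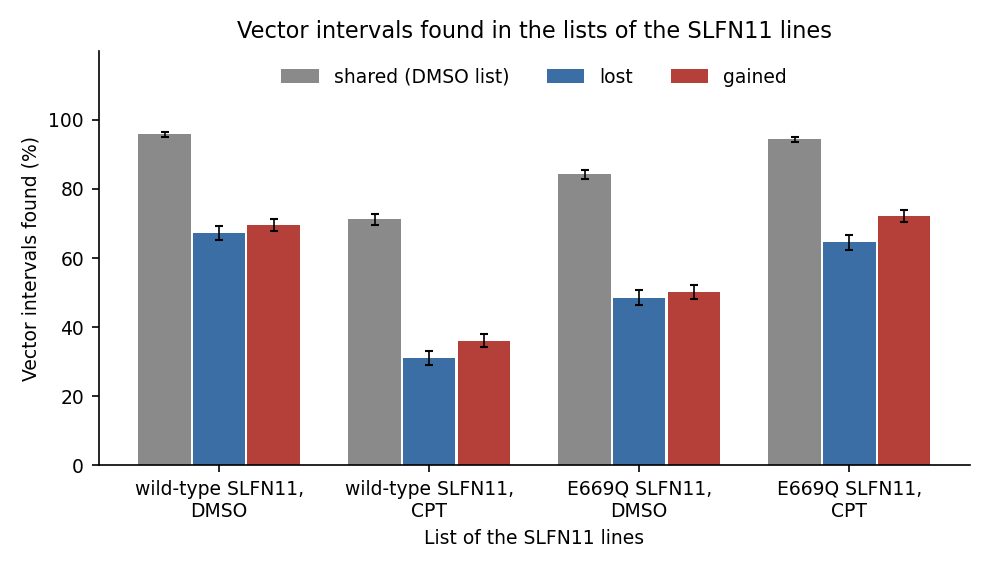
Share of vector intervals (y axis, %) that overlap each list of the SLFN11 lines (x axis) for shared (grey), lost (blue) and gained (red) intervals, with 95% Clopper-Pearson intervals as bars. Shared intervals reach 71.3% to 95.9%, lost intervals 31.1% to 67.3% and gained intervals 36.0% to 72.1%.

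The vector lists were also set against the wild-type SLFN11 list with CPT. The vector DMSO list was found by 60.5% (59.2 to 61.8) in the vector CPT list and by 55.4% (54.1 to 56.8) in the wild-type SLFN11 list with CPT, both at a depth of 1.09. Both shares are over the same 5246 intervals, and the lists searched differ in length, with 5806 and 5562 intervals. The difference between the shares was not tested. The vector CPT list was found by 54.9% (53.6 to 56.1) in the vector DMSO list, at a depth of 1, and by 55.2% (53.9 to 56.5) in the wild-type SLFN11 list with CPT. With no second vector library for either treatment, what 2 libraries of the same group would share cannot be measured here.

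Gained sites on chromosome 19 were sites of the SLFN11 lines to a large part. Of the 122, 82.8% (74.9 to 89.02) were in the wild-type SLFN11 list with DMSO, 82 in that with CPT (67.2%, 58.1 to 75.4), 87 in E669Q with DMSO (71.3%, 62.4 to 79.1) and 115 in E669Q with CPT (94.3%, 88.5 to 97.7). Gained sites elsewhere were found by 68.9%, 34.5%, 49.1% and 71.1%. The 72 lost sites of chromosome 19 also recurred often, by 73.6%, 52.8%, 59.7% and 91.7%, against 67.0%, 30.3%, 48.1% and 63.6% for lost sites elsewhere. High recurrence on chromosome 19 was thus seen in both directions and in lists of either treatment.

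Few gained or lost intervals changed in the same direction in all 3 lines. Of the 2621 gained intervals, 30 (1.14%, 0.774 to 1.63) were in the CPT list and absent from the DMSO list of both SLFN11 lines, and 67 (2.56%, 1.99 to 3.24) showed the opposite. Of the 2071 lost intervals, 69 (3.33%, 2.60 to 4.20) were in the DMSO list alone in both SLFN11 lines, and 27 (1.30%, 0.861 to 1.89) in the CPT list alone. Among the 3185 shared intervals of the CPT list, 11 (0.345%) were in the CPT list alone and 52 (1.63%) in the DMSO list alone of both SLFN11 lines. Among the 3175 of the DMSO list these were 12 (0.378%) and 48 (1.51%). Within either SLFN11 line the deeper library held more of both kinds of site, and the part of depth was not tested. In the wild-type SLFN11 line, deeper with DMSO, 991 gained sites were in the DMSO list alone and 112 in the CPT list alone, and for lost sites the numbers were 828 and 79. In the E669Q line, deeper with CPT, 143 gained sites were in the DMSO list alone and 720 in the CPT list alone, and for lost sites 134 and 467.

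The 3 sites gained in all 3 lines with the highest fold were small peaks. At chr3:154755870-154756065 the vector CPT library had a pileup of 10 fragments, wild-type SLFN11 with CPT 5 and E669Q with CPT 12. At chr7:145812962-145813119 these were 9, 7 and 10, and at chr11:27442218-27442522 they were 9, 5 and 8. Each list was matched to the vector interval and not to the other lists. At the chr11 site the wild-type interval (27442360 to 27442493) and the E669Q interval (27441992 to 27442366) overlapped each other only at their ends. The sites lost in all 3 lines by overlap with the vector interval were of similar height. At chr5:179061329-179061582 the DMSO pileups were 12 (vector), 11 (wild-type SLFN11) and 6 (E669Q). At chr8:56760448-56760768 they were 13, 18 and 11, and at chr12:28288918-28289224 they were 9, 7 and 5.

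Some gained and lost sites were in no list of the SLFN11 lines. Among gained intervals absent from all lists of the SLFN11 lines, the highest −log10 p were at chr7:123359558-123359737 (15.4, pileup 12), chr1:52137510-52137790 (14.6, pileup 11) and chr5:61771016-61771160 (13.96, pileup 11). Among lost ones they were at chr10:38881609-38881992 (17.1, pileup 13), chr11:17208580-17208708 (14.7, pileup 11) and chr6:1789366-1789572 (12.9, pileup 11). Of the 54 gained intervals with 15 or more fragments, 0 were absent from all 4 lists of the SLFN11 lines, and of the 34 such lost intervals 1 was. That lost interval, named after its values were seen, was chr21:9836990-9837182. It had 25 fragments over a local background of 6.58, a fold of 3.43, and so a higher pileup than the 3 lost sites just named.

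The 5 gained sites with the highest −log10 p were 117 to 178 bp wide, and the SLFN11 lines listed each of them more than once. What lies at these sites was not examined, so they are not to be read as promoters or enhancers opened with CPT. The first, chr11:10530437-10530562 (−log10 p 1014, fold 10.8), lay 195 bp from a DMSO interval and had folds of 10.7 in wild-type SLFN11 with DMSO, 10.98 in E669Q with DMSO and 11.2 with CPT. The second, chr1:565730-565846, lay 240 bp from a DMSO interval and had a pileup of 3583 over a local background of 2005, a fold of 1.79. The third, chr4:163342579-163342705, had a pileup of 81 with CPT and lay 773626 bp from the nearest DMSO interval. It held 84 fragments in wild-type SLFN11 with DMSO, 71 in E669Q with DMSO and 108 with CPT, and was absent from wild-type SLFN11 with CPT. At chr4:70296625-70296751 the pileup was 26, against 94 and 40 in wild-type SLFN11 with DMSO and CPT, and 76 and 87 in E669Q. At chr6:133593952-133594129 it was 24, against 49 and 20, and 40 and 57. The vector CPT library was thus below most libraries of the SLFN11 lines at the last 2 sites, in counts not scaled for depth. Depth was 1.09 in vector with CPT and 1.09 to 2.22 in the SLFN11 lines.

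The 5 lost sites with the highest −log10 p were also listed in other libraries. What lies at these sites was not examined either, so they are not to be read as promoters or enhancers closed with CPT. At chr2:88124409-88124726 the vector DMSO library had 469 fragments over a background of 10.4. E669Q with CPT had 698 in a narrower interval, chr2:88124406-88124511, which overlapped the left part of the vector interval. Wild-type SLFN11 with DMSO had 97 fragments in an interval that overlapped its right part and not the E669Q interval. The other 3 lists, both remaining CPT lists among them, had none. At chr2:191402658-191402787 the pileup was 35 with DMSO, against 83 and 47 in wild-type SLFN11 and 88 and 81 in E669Q with DMSO and CPT, so that vector with CPT was the only list without it. The other 3 were lower, at 13 to 15 fragments. At chr14:62217833-62218077 the vector DMSO pileup was 15, with 9 in wild-type SLFN11 with DMSO and 10 in E669Q with CPT. At chr8:95565683-95565906 it was 15, with 16 in each of those 2 libraries. At chr12:98833922-98834109 it was 13, with 10 in wild-type SLFN11 with DMSO, 8 in E669Q with DMSO and 12 with CPT. The wild-type SLFN11 list with CPT held none of these 3 sites, and the E669Q list with CPT held each of them.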

How the data were processed

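ATAC-seq peak lists of the vector K562 line with DMSO and with CPT (1 library each) were compared, and the 4 lists of the SLFN11 lines served as a further readout. Programs named in the submitters' processing notes are MACS2 (2.1.2), Picard (2.9.2), SAMtools (1.8), Bowtie2 (2.2.6) and Trimmomatic (0.39), with hg19 as the build. The sources used here do not give their roles, settings, read numbers or treatment of duplicates. For each summit the authors deposited a fold enrichment, which is a ratio over local background, a −log10 p and a −log10 q, and a score, which is 10 times the −log10 q without its decimals. There is 1 list per library, ending at a −log10 q of 2.00.

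An interval with several summits was counted once, with the values of its highest −log10 p. Whole summit pileups and backgrounds were solved from fold and −log10 p, taking the caller to add 1 to both counts, within 0.001 on the −log10 p scale or, for the highest peaks, within the rounding of the fold. This gave 99.0% of entries of either vector list. Backgrounds fell on whole steps, taken as 1 fragment in 10 kb, and the lowest background in steps gave relative depth. Shares carry exact Clopper-Pearson and medians order-statistic 95% intervals, and single pileup ratios exact binomial intervals, all of which treat intervals as independent. Scripts ran under Python 3.11.15 with scipy 1.17.1, pandas 2.3.3, numpy 2.4.6 and matplotlib 3.10.9, and were tested on simulated data.

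Named regions were the 5 gained and 5 lost intervals with the highest −log10 p, the 3 with the highest fold that changed alike in all 3 lines, the 3 with the highest −log10 p in no other list, and 3 shared intervals each by −log10 p and by the highest and lowest pileup ratio at a summed pileup of at least 40. Members, regions and alternatives were chosen with earlier results of these data known. Genes, promoters, cell type markers and sequences at the intervals were not analysed here, because the gene tables used are of another build. Protein-coding genes were counted per chromosome from RefSeq and divided by the largest interval end.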

Additional observations from a re-analysis of the deposited data

Results flagged for a closer look

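The number of intervals with CPT over that with DMSO was 1.11 in the vector line and 0.477 in the wild-type SLFN11 line. It drew attention because the 2 lines moved in opposite directions. With 1 library in each group, that difference was not tested. In the E669Q line the number rose from 8365 with DMSO to 12337 with CPT. Depth with CPT over DMSO moved the same way as the number in each line. It went up in the vector line (1.00 to 1.09) and the E669Q line (1.33 to 2.22), and down in the wild-type SLFN11 line (1.72 to 1.09). The part of depth in these results was not tested.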

How the results depend on the processing

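Of 30 recomputed values, 17 stayed within 1.5 times the reported count or within the counting interval or spread of the reported value. With both lists held to a −log10 q of at least 5 there were 1487 gained and 1062 lost intervals, and with only the list in question so held 899 and 563, since fewer intervals entered. At 5 or more in both lists, the wild-type SLFN11 list with CPT held 53.3% of gained and 52.4% of lost intervals. The E669Q list with CPT held 87.5% and 86.9%. Under this setting intervals whose only counterpart lies below 5 also count as gained or lost. These shares therefore do not show whether the lead of gained sites holds for sites without any counterpart. Under the same setting 18.2% of chromosome 19 intervals of the CPT list were shared. When an overlap of 0.5 of the length of both intervals was required, 24.6% of gained and 23.3% of lost intervals were in the wild-type SLFN11 list with CPT, and 40.045% and 38.9% in that of E669Q. In lists of equal length 2245 intervals were gained and 2247 lost, so the excess of gained over lost sites was not seen there. The median pileup ratio was 1.00 when the CPT summit nearest to the DMSO summit was used. Median summits held 7 to 10 fragments, and absence from a list is not absence of signal. The part of depth was not tested. No paired analysis was possible because each group is 1 library.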

Other observations

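The mitochondrial chromosome held 5 intervals with DMSO and 6 with CPT, which covered 14468 and 13853 bp, and all of them were shared. Their fold was low, 1.05 to 1.93 with DMSO and 1.07 to 1.90 with CPT. In each vector list 22 intervals had a −log10 p over 300, of which 21 were shared.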
